A study of Mus musculus with 10 samples.

Results

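Selenoproteins contain selenocysteine, an amino acid that is encoded by UGA, a codon that elsewhere ends translation. The UGA is read as selenocysteine when the 3' untranslated region of the mRNA folds into a selenocysteine insertion sequence, to which the protein SECISBP2 and the elongation factor EEFSEC bind. Many selenoproteins are oxidoreductases, and the brain is among the tissues that keep their selenium longest when the supply is low, through the plasma selenium carrier selenoprotein P and its receptor LRP8. Selenov, a relative of the small redox protein gene Selenow, is best known from testis.

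The mRNA levels of 10 selenoprotein genes were examined in whole hippocampus: Selenov, Selenow, Selenop, Selenok, Selenof, Selenot, Selenom, Selenos, Txnrd1 and Sephs2. They were found by matching the Ensembl IDs of the 43629 genes in the count table to the GRCm38 annotation, in which 24 genes carry an annotated selenocysteine codon. Selenov was selected on its higher level in Dp1Tyb in these same libraries, so its genotype difference is given below as a description, without a test. The other 9 members were listed with it to see whether selenoprotein genes moved as a group, and the 14 remaining selenoprotein genes were used for the same question.

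The libraries came from 5 Dp1Tyb mice, labelled Dp(16Lipi-Zbtb21)1TybEmcf, and 5 wild-type (WT) mice, all labelled as strain C57BL/6J.129P2 and as 18 weeks old. Per the study's methods they were male littermates backcrossed to C57BL/6JNimr, and each gave 1 library. Dp1Tyb mice model Down syndrome by a germline duplication of the part of chromosome 16 from Lipi to Zbtb21. None of the 24 selenoprotein genes lies in that segment. The 1 gene of them on chromosome 16, Txnrd2, lies outside it at chr16:18426384-18479073.

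Total counts ranged from 18227684 to 43692270 per library. Marker genes of hippocampal excitatory neurons summed to between 5907 and 7041 CPM (counts scaled to a common library size) in WT and between 6272 and 6695 CPM in Dp1Tyb. Markers of choroid plexus, a tissue next to the hippocampus, ranged from 425 to 5386 CPM in WT and from 36.0 to 3894 CPM in Dp1Tyb, with Dp1Tyb replicates 1 and 4 at 36.0 and 43.4 CPM and WT replicate 2 at 425 CPM. Whole tissue was measured, so fewer cells of a type and less RNA per cell cannot be told apart.

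The coding sequences around the selenocysteine codon are shown for 6 members, which differ in where a cysteine codon stands near it. Each stretch is spliced coding sequence, 5' to 3' on the gene's own strand, read from the GENCODE M21 transcripts of GRCm38, with up to 30 bases on each side of the codon. Capitals mark the selenocysteine TGA and a cysteine codon that stands 1 or 3 codons before it.

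Selenov: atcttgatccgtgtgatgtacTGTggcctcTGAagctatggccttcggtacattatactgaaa
Selenow: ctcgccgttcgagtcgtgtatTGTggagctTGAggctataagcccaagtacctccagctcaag
Selenot: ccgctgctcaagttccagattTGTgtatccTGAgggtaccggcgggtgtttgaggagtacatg
Selenom: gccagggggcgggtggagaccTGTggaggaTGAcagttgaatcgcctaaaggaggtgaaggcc
Txnrd1: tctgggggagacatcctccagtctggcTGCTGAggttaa
Selenop: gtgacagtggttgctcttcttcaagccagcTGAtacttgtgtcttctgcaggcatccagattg

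The selenocysteine codon of Selenov lies at chr7:28288486-28288488 on the minus strand, as codon 255 of 328. That of Selenow lies at chr7:15920464-15920466 on the minus strand, as codon 13 of 88. The codon is number 49 of 195 in Selenot (chr3:58585238-58585240, plus strand) and number 48 of 145 in Selenom (chr11:3516273-3516275, plus strand). In these 4 members a cysteine codon stands 3 codons before the TGA, the spacing of a thioredoxin-like redox motif, and 6 of the 24 selenoprotein genes have it. Txnrd1, a thioredoxin reductase, has its cysteine codon directly before the TGA, and the TGA is codon 612 of 613 (chr10:82896037-82896039, plus strand). The codon lies in the last 5% of the coding sequence in 7 of the 24 genes, Selenok, Selenos and Txnrd1 among them. Selenop has 10 selenocysteine codons, and the one shown is the first, codon 59 of 380 (chr15:3274848-3274850, plus strand). A cysteine codon, not in capitals above, stands 3 codons after this one.

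The stretch of Selenov was most like that of Selenow. The 2 stretches had 31 of 60 bases outside the TGA in common, position by position without gaps. The next closest of the 17 genes with a full stretch, Gpx1, had 24 in common with Selenov, and the median was 17.0. Over whole transcripts, however, the longest run of identical bases shared by Selenov and Selenow was 11. The longest run shared with a transcript of any other annotated gene, on either strand, was 45 bases (Sh2b2), which is less than the read length of 75 bases. This covers identical runs in annotated transcripts only, and how reads were assigned was not tested. No annotated gene overlaps Selenov.

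Selenov (ENSMUSG00000046750, chr7:28284652-28291186, minus strand) was the lowest of the 10 members and was higher in every Dp1Tyb mouse than in any WT mouse. The WT libraries, replicates 1 to 5, held 18, 8, 16, 22 and 12 Selenov counts, and the Dp1Tyb libraries held 138, 96, 52, 57 and 54. Scaled to library size, WT levels were 0.560, 0.333, 0.868, 0.666 and 0.560 CPM, and Dp1Tyb levels were 3.16, 3.36, 2.08, 1.73 and 2.46 CPM. The highest WT mouse, replicate 3, was thus below the lowest Dp1Tyb mouse, replicate 4. The WT mean was 0.597 ± 0.194 CPM and the Dp1Tyb mean 2.56 ± 0.696 CPM (SD, n = 5 each), with a fitted log2 fold change of 2.11 ± 0.25 SE, or 4.33-fold. The Dp1Tyb mice ranged among themselves by less than the distance between the genotype means. These values chose the gene, and nothing is supported with them.

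**Figure D1:**
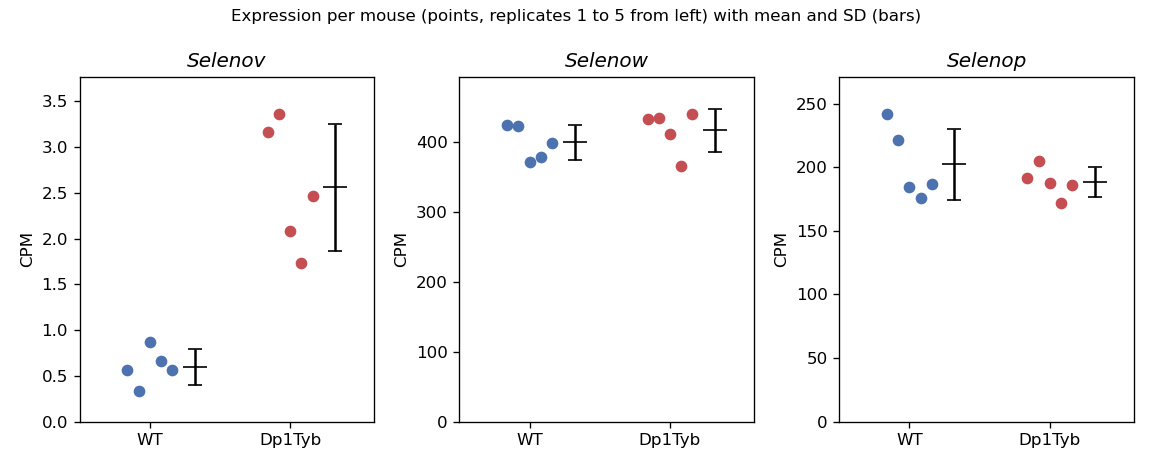
Expression in CPM (linear axes from 0) of Selenov, Selenow and Selenop in WT and Dp1Tyb hippocampus, with 1 point per mouse in the order of replicates 1 to 5 and the mean and SD beside them. The Selenov points of the genotypes are apart (0.333 to 0.868 CPM in WT, 1.73 to 3.36 CPM in Dp1Tyb), while the Selenow and Selenop points overlap.

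Fits with libraries left out are likewise a description, since Selenov was chosen on these libraries. Leaving out each library in turn gave log2 fold changes from 1.97, without WT replicate 2, to 2.25, without WT replicate 3. The 3 libraries poor in choroid plexus markers stood at both ends of the Selenov range, WT replicate 2 being the lowest in WT, Dp1Tyb replicate 4 the lowest in Dp1Tyb and Dp1Tyb replicate 1 the second highest. Without them, an alternative chosen after the marker values were seen, the log2 fold change was 2.01.

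Markers of several cell types were set beside Selenov. Of 8 genes of spermatogenic cells, where Selenov is best known, 5 had at most 3 counts in every library, and of these Tnp1, a chromatin protein of spermatids, had 0 counts in all 10. The germ cell genes Ddx4 and Dazl were the 2 that could be tested, and they gave log2 fold changes of -0.075 ± 0.14 SE and 0.061 ± 0.094 SE (edgeR quasi-likelihood test, adjusted p = 0.842 and 0.795). Astrocyte markers, 4 genes, summed to between 1068 and 1187 CPM in WT and between 1234 and 1304 CPM in Dp1Tyb, and of these Gfap passed the test (log2 fold change 0.26 ± 0.047 SE, adjusted p = 0.0167). Interneuron markers, 3 genes, summed to between 465 and 550 CPM in WT and between 556 and 671 CPM in Dp1Tyb. Of these Gad2 passed the test (0.34 ± 0.074 SE, adjusted p = 0.0410). Taken singly, 2 of the 4 astrocyte and 2 of the 3 interneuron markers did not overlap between the genotypes. Among those that overlapped were Aldh1l1 of astrocytes (-0.0095, adjusted p = 0.947) and Slc32a1 of interneurons (0.11, adjusted p = 0.557). Over all tested genes, 1.11% passed and 3.68% did not overlap. No defining marker of either list was at 0. Other lists overlapped between WT and Dp1Tyb, and none of their genes passed. Endothelial markers summed to 118 to 136 CPM in WT and 113 to 122 CPM in Dp1Tyb. Microglial markers summed to 175 to 195 and 141 to 192 CPM, and oligodendrocyte markers to 3281 to 4054 and 3229 to 4278 CPM. The part of these cell types in the Selenov result was not tested.

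The gene patterns most like that of Selenov over the 10 libraries were found from log2 CPM values standardised per gene, by the root mean square distance. They were those of Rcan1, a calcineurin regulator (0.280), Cbr1, a carbonyl reductase (0.284), Rnf34, a ubiquitin ligase (0.293), App, the amyloid precursor (0.298), and Spock1, a matrix proteoglycan (0.303). Rcan1, Cbr1 and App lie in the duplicated segment, while Rnf34 is on chromosome 5 and Spock1 on chromosome 13. Their genotypes did not overlap, which the choice by likeness to Selenov favoured, so it is no separate result. Over all genes tested, 634 (3.68%) had genotypes that did not overlap. App ranged from 1543 to 1672 CPM in WT and from 2518 to 2618 CPM in Dp1Tyb, and Rnf34 from 47.6 to 49.7 CPM in WT and from 54.3 to 56.7 CPM in Dp1Tyb. These genes share with Selenov a split by genotype, and their libraries, and the distances carry no test.

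Selenow, which encodes a small redox protein abundant in muscle and brain, had the highest level of the members. Its WT libraries stood at 425, 423, 372, 378 and 399 CPM and its Dp1Tyb libraries at 433, 434, 411, 365 and 440 CPM. The genotypes overlapped, with Dp1Tyb replicates 1, 2 and 5 above every WT mouse and Dp1Tyb replicate 4 below every WT mouse. The log2 fold change was 0.060 ± 0.057 SE (adjusted p = 0.653), with a 95% interval of -0.062 to 0.18. Here and below, adjusted p-values are those of edgeR's quasi-likelihood test with n = 5 per genotype, adjusted over all 17237 genes tested, of which 191 (1.11%) passed an adjusted p of 0.05.

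Selenot and Selenom, the other members with the same spacing of cysteine and selenocysteine codons, encode proteins of the endoplasmic reticulum. Selenot stood at 191, 199, 189, 180 and 193 CPM in WT and at 192, 206, 197, 220 and 194 CPM in Dp1Tyb. The highest 2 values were from Dp1Tyb replicates 4 and 2, but the genotypes overlapped (log2 fold change 0.085 ± 0.043 SE, adjusted p = 0.389). Selenom had 47.1, 52.1, 50.2, 55.4 and 52.4 CPM in WT and 45.2, 48.2, 46.5, 43.5 and 52.3 CPM in Dp1Tyb. Its log2 fold change of -0.13 ± 0.057 SE had an unadjusted p of 0.0427 and an adjusted p of 0.330, so that it did not pass. Dp1Tyb replicates 2 and 5 lay within the WT range. Over all tested genes, 14.4% had an unadjusted p under 0.05.

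Selenop, the carrier that brings selenium to the brain, was measured at 242, 222, 185, 176 and 187 CPM in WT and at 192, 205, 188, 172 and 186 CPM in Dp1Tyb. The highest 2 levels were in WT replicates 1 and 2, and the other mice of both genotypes lay together between 172 and 205 CPM. The log2 fold change was -0.10 ± 0.081 SE (adjusted p = 0.590), and it was -0.041 without the 3 libraries poor in choroid plexus markers. Selenop overlaps Ccdc152 on the other strand. The libraries were stranded per the study's methods, but the strand setting of the counting was not given in the sources used here. How reads from the overlap were counted is thus not known, and the Selenop value is uncertain to that extent.

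Selenok, Selenof and Selenos are further members of the endoplasmic reticulum, where Selenos and Selenok take part in the removal of misfolded proteins and Selenof binds the glycoprotein folding sensor UGGT. Selenok ranged from 58.5 to 72.3 CPM in WT and from 66.4 to 73.6 CPM in Dp1Tyb (log2 fold change 0.066 ± 0.059 SE, adjusted p = 0.633). Selenof ranged from 116 to 127 CPM and from 117 to 129 CPM (0.026 ± 0.039 SE, adjusted p = 0.790). For Selenos the ranges were 25.3 to 31.1 CPM and 27.2 to 31.3 CPM (0.0072 ± 0.063 SE, adjusted p = 0.971). All 3 genes overlapped between the genotypes, and leaving out single libraries turned the sign of the Selenos difference, from -0.034 to 0.044.

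Txnrd1, the cytosolic thioredoxin reductase, was the steadiest of the members in WT. Its WT libraries stood at 57.2, 57.8, 57.9, 57.2 and 58.7 CPM, and the Dp1Tyb libraries at 56.4, 58.7, 56.3, 54.6 and 59.0 CPM. The log2 fold change was -0.019 ± 0.036 SE (adjusted p = 0.839), with a 95% interval from 0.935-fold to 1.04-fold. Eid3 lies on the same strand within Txnrd1, so the value is uncertain to that extent. Sephs2, which makes the selenophosphate from which selenocysteine is built and is itself a selenoprotein, ranged from 22.1 to 24.3 CPM in WT and from 22.4 to 23.5 CPM in Dp1Tyb (-0.033 ± 0.048 SE, adjusted p = 0.783).

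None of the 9 members other than Selenov passed the test, in edgeR or under any alternative, and 1 of them (Selenom) had an unadjusted p under 0.05. Their fitted differences were above 0 in 5 genes and below 0 in 4, with a median log2 fold change of 0.0072, against -0.0041 over all tested genes. The 95% intervals of all 9 lay within 1.5-fold in either direction. The lowest bound was 0.826-fold (Selenop) and the highest was 1.14-fold (Selenok). These bounds are not set against the Selenov difference, since that value chose the gene. The genotypes were apart in none of the 9, beside 634 (3.68%) of all genes tested. Over all genes tested, 150 (0.870%) were called higher in Dp1Tyb and 14.4% had an unadjusted p under 0.05. With 9 genes, the counts cannot be told from those shares.

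**Figure D2:**
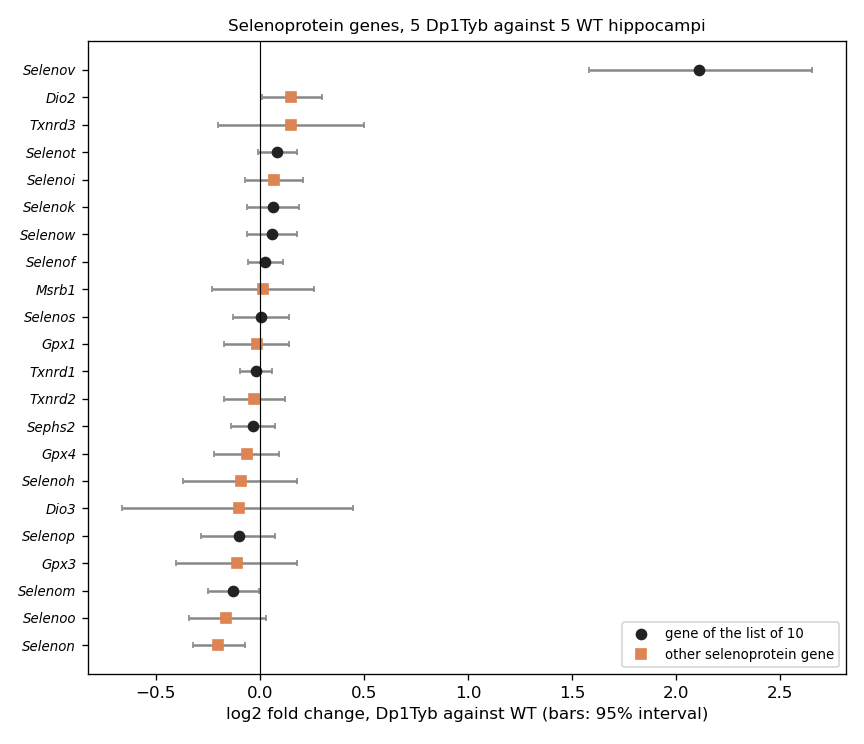
Log2 fold change of Dp1Tyb against WT with its 95% interval (bars) for the 22 selenoprotein genes that passed the filter on low counts, black circles for the 10 members and orange squares for the others. Selenov is at 2.11 and the other 21 genes lie between -0.20 (Selenon) and 0.15 (Dio2).

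The remaining 14 selenoprotein genes were examined in the same way. Gpx2 and Dio1 were too low to test, with 3 to 13 and 0 to 4 counts per library. Of the 12 tested, 0 passed in edgeR at the adjusted threshold or with any other tool, beside 1.11% of all genes tested in edgeR. An unadjusted p under 0.05 was found in 2 of the 12, beside 14.4% of all genes tested. One was Selenon, which encodes an endoplasmic reticulum protein that is mutated in a congenital muscle disease, and which was measured at 25.6, 24.7, 23.4, 25.5 and 24.2 CPM in WT and at 23.3, 22.7, 21.2, 19.8 and 20.7 CPM in Dp1Tyb. The genotypes did not overlap, by a gap between WT replicate 3 and Dp1Tyb replicate 1 that was small beside the spread of either group. The log2 fold change of Selenon was -0.20 ± 0.057 SE (unadjusted p = 0.00443, adjusted p = 0.137), and its adjusted p under the alternatives ranged from 0.0679 to 0.295. The other was Dio2, the deiodinase that activates thyroid hormone in astrocytes, with 41.3 to 50.3 CPM in WT and 46.2 to 59.0 CPM in Dp1Tyb (0.15 ± 0.066 SE, unadjusted p = 0.0367, adjusted p = 0.312). Dio2 is known as an astrocyte gene. Of the 4 astrocyte markers, Gfap was higher in Dp1Tyb by the test, while Aqp4 and Slc1a3 gave log2 fold changes of 0.22 and 0.11 that did not pass (adjusted p = 0.0721 and 0.330), and Aldh1l1 gave -0.0095 (adjusted p = 0.947). Their part in the Dio2 value was not tested.

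Among the glutathione peroxidases, which reduce hydrogen peroxide and lipid peroxides, Gpx4 was the most expressed and ranged from 155 to 198 CPM in WT and from 143 to 177 CPM in Dp1Tyb (log2 fold change -0.063 ± 0.072 SE, adjusted p = 0.717). Gpx1 gave -0.011 ± 0.072 SE and Gpx3 -0.11 ± 0.14 SE (adjusted p = 0.963 and 0.741). The other reductases, mitochondrial Txnrd2 and Txnrd3, gave -0.027 ± 0.068 and 0.15 ± 0.16 SE (adjusted p = 0.886 and 0.702). Dio3, which inactivates thyroid hormone, gave -0.10 ± 0.26 SE (adjusted p = 0.881) and had the widest interval, from 0.633-fold to 1.37-fold. Selenoh, a nucleolar protein gene, Selenoi, a phospholipid synthesis enzyme gene, Selenoo, which encodes a mitochondrial enzyme, and the methionine sulfoxide reductase gene Msrb1 lay between -0.16 and 0.068, with adjusted p-values from 0.427 to 0.963. Selenoo overlaps the protein-coding gene Tubgcp6 on the other strand and Selenoh overlaps Gm28635 on its own strand. Over the 21 tested genes other than Selenov, 9 lay above 0 and 12 below, with a median of -0.019, and 20 of the 21 intervals lay within 1.5-fold.

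Levels of different genes were compared per length, as RPKM (CPM per kilobase of exon). In WT, Selenow stood at 543 ± 33.3 RPKM (SD, n = 5), followed by Selenop with 61.9 to 85.3 RPKM and Selenot with 52.5 to 58.0 RPKM. Selenok, at 35.1 ± 3.11 RPKM, and Selenom, at 34.7 ± 2.07 RPKM, came next, then Selenof, with 21.9 RPKM in its highest mouse, and Selenos at 19.2 ± 1.58 RPKM. Sephs2 stood at 10.7 ± 0.447 RPKM and Txnrd1 at 8.15 ± 0.0858 RPKM. Selenov was last at 0.411 ± 0.134 RPKM, and Selenow was 1320 times higher. Selenok and Selenom did not differ in WT beyond their spread, nor did Selenof and Selenos, while the WT ranges of the other neighbours in this order did not overlap. In Dp1Tyb the order of the means was the same, although there Selenop (60.7 to 72.2 RPKM) and Selenot (55.9 to 64.1 RPKM) overlapped too. Selenov was then at 1.76 ± 0.479 RPKM, still below Txnrd1 at 8.04 ± 0.258 RPKM. With the length of the longest transcript in place of all exons, 5 members changed their place, and Selenof rose from place 6 to place 4, at 45.2 RPKM.

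**Figure D3:**
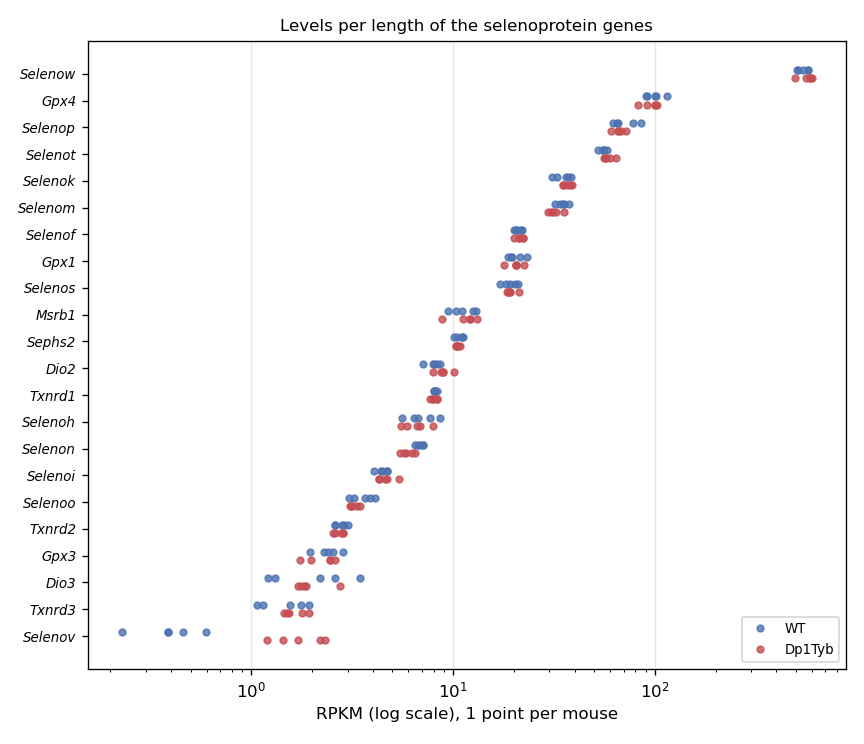
RPKM (log scale) of 22 selenoprotein genes, with 1 point per mouse, WT in blue and Dp1Tyb in red, ordered by the mean over the 10 libraries. Selenow is at the top with 496 to 598 RPKM, Selenov is at the bottom with 0.229 to 0.597 RPKM in WT and 1.19 to 2.31 RPKM in Dp1Tyb, and Gpx2 and Dio1, lower still, are not drawn.

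Of all 24 genes Selenov held place 22 by the mean over the 10 libraries, above Gpx2 and Dio1 only. Summed over the 9 other members, the level was 799 ± 43.1 RPKM in WT and 819 ± 46.6 RPKM in Dp1Tyb (SD, n = 5), a difference of 2.57% that was smaller than the spread between mice. With 1 library left out it ran from 1.23% (WT replicate 4 omitted) to 5.0% (Dp1Tyb replicate 4 omitted), and it was 6.45% without the 3 libraries poor in choroid plexus markers. The WT mice ranged from 756 to 846 RPKM and the Dp1Tyb mice from 742 to 854 RPKM. Selenov made up 0.0522% ± 0.0190 of the summed RPKM of the 10 members in WT and 0.213% ± 0.0494 in Dp1Tyb, so that in both genotypes nearly all selenoprotein mRNA of the members came from the others.

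Over all tested genes, 1.11% passed in edgeR and 14.4% had an unadjusted p under 0.05. Counts in the short lists below cannot be told from those shares. The genes that make and insert selenocysteine were tested from a list of 11. None passed in edgeR, DESeq2 or voom, and none had an unadjusted p under 0.05, and the median log2 fold change was 0.0073. The lowest p-values belonged to Ncl, nucleolin, which binds selenoprotein mRNAs (0.084 ± 0.048 SE, adjusted p = 0.441), and to Rpl30, a ribosomal protein that binds the insertion element (-0.11 ± 0.066 SE, adjusted p = 0.458). Among 6 genes of selenium supply none passed with any of these tools either, and 1 had an unadjusted p under 0.05, with a median of -0.090. This was Lrp2, a receptor for selenoprotein P in kidney and epithelia, which had 1.83 to 2.94 CPM in WT and 2.34 to 4.51 CPM in Dp1Tyb (0.56 ± 0.19 SE, unadjusted p = 0.0119, adjusted p = 0.212). Lrp8, its receptor in brain, named here for that role, gave -0.084 ± 0.050 SE (adjusted p = 0.469), and Scly, which frees selenium from selenocysteine, gave -0.17 ± 0.084 SE (adjusted p = 0.390). Scly was at -0.098 without Dp1Tyb replicate 1 and at -0.046 without the 3 libraries poor in choroid plexus markers (adjusted p = 0.856 for the latter).

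The proteins that work with the members in the endoplasmic reticulum and in the thioredoxin system were examined in the same way. These lists too are short beside the shares over all tested genes, 1.11% passing in edgeR and 14.4% at an unadjusted p under 0.05. Of 10 partner genes in the endoplasmic reticulum none passed with edgeR, DESeq2 or voom, 1 had an unadjusted p under 0.05, and the median log2 fold change was -0.013. Syvn1, the ubiquitin ligase of the degradation complex, gave -0.10 ± 0.046 SE (unadjusted p = 0.0413, adjusted p = 0.327), and its cofactor Sel1l gave 0.047 ± 0.040 SE (adjusted p = 0.614). Of 12 genes of the thioredoxin system and of the NRF2 response, which also controls Txnrd1, none passed with these tools, 3 had an unadjusted p under 0.05, and the median was -0.018. Keap1, the inhibitor of NRF2, gave -0.16 ± 0.063 SE (unadjusted p = 0.0259, adjusted p = 0.283), and Txnip, the thioredoxin inhibitor, gave -0.28 ± 0.13 SE (unadjusted p = 0.0415, adjusted p = 0.327). Txnip was at -0.088 without the 3 libraries poor in choroid plexus markers (adjusted p = 0.797). The third was Srxn1, sulfiredoxin, an NRF2 target, which lay above 0 (0.11 ± 0.050 SE, unadjusted p = 0.0448, adjusted p = 0.337) and is named here after its value was seen.

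The locus of Selenov on chromosome 7 was examined for other genes with a difference between the genotypes. Within 250 kb, 17 genes were tested and 0 passed in edgeR, with 2 at an unadjusted p under 0.05, and DESeq2 called 1. Over all tested genes, 1.11% passed in edgeR and 14.4% had an unadjusted p under 0.05. The nearest tested gene at lower coordinates was Eid2b, 5.16 kb away, which gave -0.043 ± 0.068 SE on the log2 scale (adjusted p = 0.805). At higher coordinates it was Dll3, a Notch ligand 2.37 kb away on the same strand, with 0.705 to 1.59 CPM in WT and 0.666 to 1.46 CPM in Dp1Tyb (0.23 ± 0.27 SE, adjusted p = 0.717). The gene that DESeq2 called was the kinase gene Dyrk1b, named here after its values were seen. It stood at 21.4, 23.4, 28.1, 28.8 and 26.1 CPM in WT and at 18.1, 19.7, 20.5, 19.2 and 23.4 CPM in Dp1Tyb (-0.34 ± 0.090 SE, adjusted p = 0.0948), in the direction opposite to Selenov. Its adjusted p ranged from 0.0117 to 0.306 over the alternatives. It passed in 3 of the 16, DESeq2 and the fit without WT replicate 1 (adjusted p = 0.0465) among them. Within 500 kb, 34 genes were tested and 0 passed in edgeR, with 4 at an unadjusted p under 0.05, and 8 of the 34 lay above 0, beside 8395 of the 17237 genes tested.

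**Figure D4:**
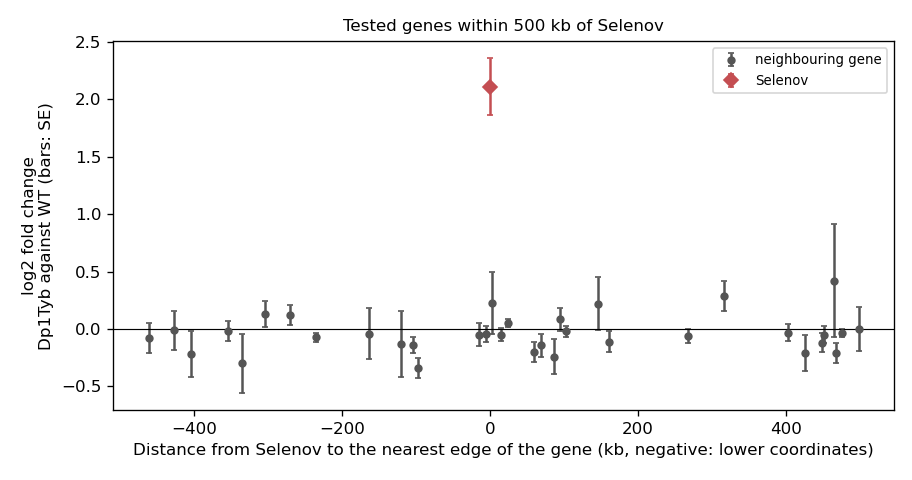
Log2 fold change of Dp1Tyb against WT, with its SE (bars), of Selenov (red diamond) and of the 34 tested genes within 500 kb (grey), against their distance from Selenov in kb. Selenov is at 2.11, and the neighbours lie between -0.34 and 0.42.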

How the data were processed

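Stranded poly(A) libraries of whole hippocampus RNA were read as paired ends of 75 bases. Per the study's methods and the submitters' processing notes, the authors used Trim Galore, TopHat2 2.0.12 (GRCm38) and HTSeq and left out reads with several alignments. The deposited counts are whole numbers per gene and not normalised. The annotation release and the strand setting of the counting are not given in the sources used here. Deposited tables of normalised signal and of the authors' own DESeq2 1.6.3 comparison (mean levels, fold changes, p-values) were not used.

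All 10 libraries were fitted with edgeR 4.0.16 in R 4.3.3 (TMM, filterByExpr, no covariates, quasi-likelihood F-test, Benjamini-Hochberg adjustment over the 17237 genes kept, called at an adjusted p under 0.05). SE is the log2 fold change divided by the root of F. RPKM used the length of all exons. Symbols and positions came from GENCODE M21, which matched 42548 genes. No 2 libraries agreed within sampling noise (smallest chi-square per degree of freedom 4.68 over 45 pairs). On simulated data of 17039 genes, with a 1.5-fold change set in 200, edgeR found 70% of these and 5.41% of its calls were false.

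The members and gene lists were chosen with earlier results of these data known. Named were all 24 selenoprotein genes, the called genes or else the 2 of lowest p in each other list, the nearest tested neighbours of Selenov and the 5 genes most like it. Alternatives were DESeq2 1.42.0, limma 3.58.1 (voom), other size factors, no filter, a replicate block, single libraries left out, another window, gene length or sum, and, added after marker values were seen, leaving out the 3 libraries poor in choroid plexus markers.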

Additional observations from a re-analysis of the deposited data

Results flagged for a closer look

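In 46 groups of 5 mice (each of the 22 tested selenoprotein genes, and the summed level of the 9 members other than Selenov, in each genotype, on a log2 scale), the highest or lowest mouse was compared with the others by Dixon's ratio, its gap to the nearest mouse divided by the range of the group. Chance gives about 2.3 groups past the 95% critical value, and 2 were found. Selenos in Dp1Tyb replicate 5 had a ratio of 0.742, at 4.97 against 4.77 to 4.82 in the other Dp1Tyb mice, or 31.3 CPM. That level was just above every WT mouse, of which replicate 1 was the highest, at 31.1 CPM. Dio3 in Dp1Tyb replicate 4 had a ratio of 0.808, at 2.50 against 1.82 to 1.95, or 5.57 CPM, and 1 WT mouse was higher, at 6.99 CPM. Dp1Tyb replicate 4 was also 1 of the 3 libraries poor in choroid plexus markers, whose part in this value was not tested.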

How the results depend on the processing

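Over the 16 alternatives the log2 fold change of Selenov, which was chosen on these libraries, was 1.97 to 2.25. Of the 21 other tested selenoprotein genes, 0 passed under any alternative. Over all genes, 191 were called in edgeR, 507 in DESeq2, 315 with the replicate block, 108 without the 3 libraries poor in choroid plexus markers, and 105 to 218 with single libraries left out, lowest without WT replicate 4 or Dp1Tyb replicate 2 (105 each). Of the neighbours of Selenov, 1 was called in DESeq2 and 1 with the replicate block (Dyrk1b in both), and 0 to 1 with single libraries left out. With the block Selenov gave 2.08. Whether same-numbered mice were paired is not stated in the sources used here. Their deviations correlated over 0.1 in 3 of 5 pairs, from -0.069 to 0.28, and 1 of 5 WT mice was closest to its own number. These values leave a pairing undecided. The cause of these shifts was not tested. Small differences turned sign: Gpx1 gave 0.0075 without the choroid-poor libraries (-0.048 to 0.037 with single libraries left out), Dio3 0.010 and Msrb1 -0.0011 in voom (-0.26 to 0.12 and -0.038 to 0.096), and with single libraries left out Selenos gave -0.034 to 0.044 and Txnrd2 -0.053 to 0.0025. The longest transcript as gene length moved 5 members in the order of levels. Low counts limit Selenov most, at 8 in its lowest library, and Gpx2 and Dio1 could not be tested.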
